A study of Mus musculus with 5 samples.

Results

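The cells described here came from mammary glands of BPK mice after 12 intraductal injections of the carcinogen 4NQO, compared with cells from a BPK gland given 12 injections of the PBS/PEG vehicle. BPK mice carry 1 floxed and 1 wild-type Brca1 allele, floxed Trp53 on both alleles and the Krt14cre transgene, and the vehicle gland shares all of these alleles with the treated ones. The keratin 14 promoter that drives Cre is active in basal epithelium, so the model deletes the floxed exons there and in cells derived from it, and not by design in immune, endothelial or stromal cells. All droplets with at least 300 detected genes and at most 20% mitochondrial transcripts were taken, which gave 9388 vehicle cells, 7475 cells of 4NQO replicate 1 and 6960 cells of 4NQO replicate 2, or 23823 of the 33551 cells that pass these limits in the 5 libraries of the series. A PK gland given 12 injections of 4NQO (floxed Trp53 on both alleles, Krt14cre, wild-type Brca1) entered the statistical fit as the other group, and a BPK tumour library was not used. The labels do not say whether the libraries came from separate animals, so the p-values measure the spread between libraries, and the single vehicle library is assumed to vary like the 4NQO pair.

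4NQO is a quinoline that cells reduce to a metabolite which forms bulky adducts on purines, and these lesions are removed mainly by nucleotide excision repair. The mammary duct has an outer contractile basal layer and an inner luminal layer, in which alveolar cells carry milk-protein and innate defence genes and hormone-sensing cells carry the oestrogen and progesterone receptors. Type I interferons induce antiviral genes such as Ifit1 and Rsad2. Interferon-gamma, made mainly by T and NK cells, induces guanylate-binding and immunity-related GTPases, MHC class II genes and the chemokines Cxcl9 and Cxcl10.

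The files hold UMI counts, which are counts of distinct captured transcripts, for 27998 genes. Kept cells held 63987361 UMIs in the vehicle library, 46784356 in replicate 1 and 27234375 in replicate 2, with medians of 4707.5, 4295 and 2591 UMIs per cell. Replicate 2 stood apart from the other libraries: it shared 1 or 2 cell barcodes with each of them, against 26 to 107 among the others, and its normalization factor over summed counts was 1.27 against 0.909 to 0.942. For this reason levels below are given for both replicates. Transcripts of Trp53 were at 48.8, 45.1 and 27.3 CPM (UMIs per 1000000 UMIs of the library or class sum) in vehicle, replicate 1 and replicate 2, and those of Brca1 at 1.77, 1.05 and 5.14 CPM. The libraries read 3′ ends and the labels do not give the deleted exons, so these levels do not check the deletion. Each cell was placed in a class by marker genes, and 15.5%, 16.2% and 22.01% of cells, in the same order, stayed without a class. Keratinocyte markers separated at most 9 cells per library, so the basal class may hold keratinocytes.

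T cells, plasma cells and NK or innate lymphoid cells made up a larger share of both 4NQO libraries than of vehicle. T cells were 16 of 9388 cells in vehicle (0.170%, exact 95% interval 0.0974 to 0.277), 129 cells in replicate 1 (1.73%, 1.44 to 2.05) and 418 cells in replicate 2 (6.01%, 5.46 to 6.59). Both 4NQO intervals lay above the vehicle interval, although these intervals cover counting error only and the shares were not tested over libraries. The mean log2 ratio of the T cell share was 4.24, with 3.34 for replicate 1 and 5.14 for replicate 2, and it was 3.73 after every cell was thinned to 1000 UMIs (2.72 and 4.73 for the replicates). NK or innate lymphoid cells were 0.256%, 0.682% and 1.06% of cells in vehicle, replicate 1 and replicate 2. Plasma cells, the antibody-secreting end stage of B cells, numbered 25 in replicate 1 (0.334%) and 32 in replicate 2 (0.460%), against 0 of 9388 in vehicle, where a limit of 3 counts allows a share of up to 0.0320%.

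Macrophages and dendritic cells differed between the 4NQO replicates themselves. Macrophages were 2.14% of vehicle cells (exact 95% interval 1.86 to 2.45), 2.11% of replicate 1 and 10.4% of replicate 2 (9.71 to 11.2). Dendritic cells numbered 6, 6 and 48. Replicate 1 therefore had a larger T cell share than vehicle at the same macrophage share. Among epithelial cells the alveolar share was 45.3% in vehicle, 38.0% in replicate 1 and 30.2% in replicate 2, lower in both 4NQO libraries, whereas the basal share was 28.5%, 28.0% and 41.6% and the hormone-sensing share 26.0%, 34.0% and 27.9%. Fibroblasts were 8.51%, 6.22% and 18.8% of all cells and endothelial cells 9.87%, 14.5% and 6.45%, so that for both classes the replicates fell on opposite sides of vehicle. Cell shares in dissociated glands also depend on which cells survive dissociation, which was not tested.

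**Figure D1:**
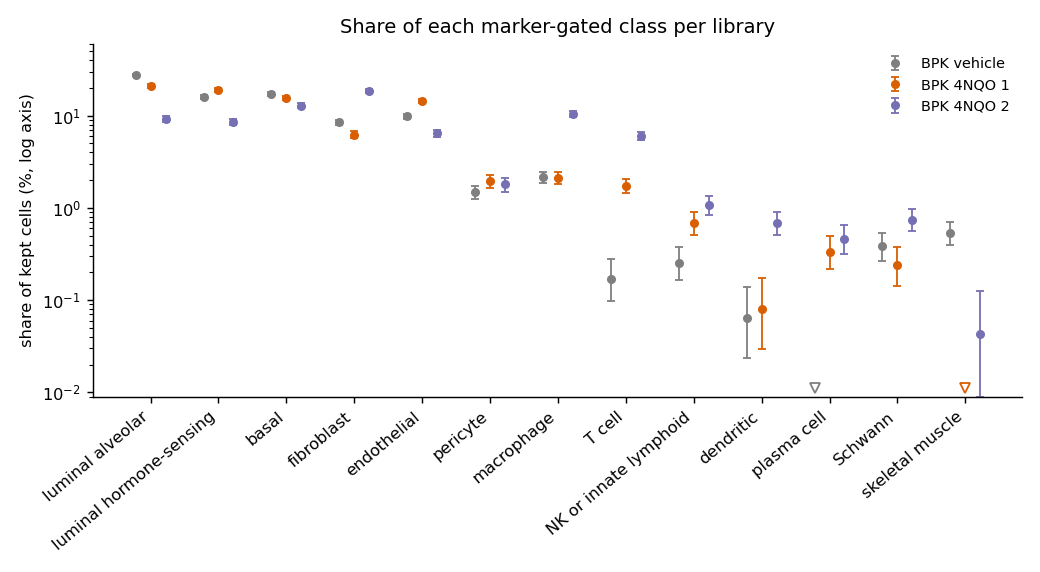
Share of kept cells in each marker class (%, log axis) in the vehicle library and the 2 BPK 4NQO libraries, with exact 95% intervals for counting error and open triangles where no cell was found. T cells are at 0.170% in vehicle and at 1.73% and 6.01%, and macrophages are at 2.14%, 2.11% and 10.4%.

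With 16 vehicle T cells, expression within the T cell class could not be tested, and values are given with exact Poisson intervals. Cd8a, the coreceptor of cytotoxic T cells, was at 243 CPM in replicate 1 (interval 193 to 301) and 372 CPM in replicate 2 (327 to 422), against 47.5 CPM from a single count in vehicle (1.20 to 265). The vehicle interval for Cd8a overlapped that of replicate 1. Icos, a costimulatory receptor of activated T cells, was at 238 CPM in vehicle (77.1 to 554), 674 CPM in replicate 1 (589 to 768) and 851 CPM in replicate 2 (783 to 924). Both 4NQO intervals for Icos lay above that of vehicle. Ifng transcripts were found in all 3 libraries, at 95.02 CPM from 2 counts in vehicle (11.5 to 343), 189 CPM in replicate 1 (145 to 241) and 212 CPM in replicate 2 (178 to 249.7), and these intervals overlapped. Over the whole libraries, Ctla4, an inhibitory receptor of activated and regulatory T cells, was at 0.0625, 2.76 and 26.1 CPM, and Icos at 0.172, 7.37 and 34.6 CPM. Both rose, with log2 fold changes of 7.37 (SE 1.37, adjusted p = 0.000150) and 6.53 (SE 1.22, adjusted p = 0.000151) in edgeR's quasi-likelihood test with Benjamini-Hochberg adjustment. With DESeq2's scaling of library sizes in edgeR neither passed (adjusted p = 0.0799 and 0.0669). Whole-library sums alone cannot separate more cells of a type from more RNA per cell. The T cell share was higher in both 4NQO libraries than in vehicle. Within T cells the genes differed. Icos was higher in both, from 5 counts in vehicle. Ctla4 was at 47.5 CPM from 1 count in vehicle (1.20 to 265), 302 CPM in replicate 1 (246 to 367) and 676 CPM in replicate 2 (615 to 741). Its vehicle interval overlapped that of replicate 1. Gzmb went the other way, at 1188, 847 and 435 CPM. These intervals cover counting error only.

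The basal epithelium held the largest number of called genes of the 7 classes tested in edgeR, whereas DESeq2 called 27 genes in basal and 28 in luminal alveolar cells. Of 11907 genes tested there, 124 rose (1.04%) and 5 fell (0.0420%) at an adjusted p of 0.05. Of the 124, 92 were at least 2-fold higher in both 4NQO libraries and 32 were not. The 124 were selected by the test on these same libraries, so this is not independent evidence that the replicates agree. Genes of the interferon antiviral list made up 12 of the 124 rises, out of 26 tested, and 23 of the 26 were at least 2-fold higher in both 4NQO libraries, against 4.00% of all genes. The list's median log2 fold change was 3.51, or 3.19 with the 3 genes that had no vehicle count set to their lower bound, against 0.02 over all genes tested in basal cells, and it was 3.02 in replicate 1 and 3.64 in replicate 2. A list of interferon-gamma-induced GTPases and their regulators had 8 of 17 members higher, with a median of 3.33, or 3.21 at the bound (3.19 and 3.01 for the replicates).

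The promoters of 3 of these genes and of the chemokine gene Cxcl10 are shown because they carry the response elements to which interferon-activated factors bind. Each line gives 300 bases, from 250 before to 50 after the annotated start, 5′ to 3′ on the gene's strand, from RefSeq on GRCm38.p6. Capitals mark matches to the interferon-stimulated response element, searched as GAAANNGAAA on both strands, and to the gamma-activated site, searched as TTCNNNGAA, which reads the same on both strands.
Igtp (chr11:58199306-58199605, plus strand): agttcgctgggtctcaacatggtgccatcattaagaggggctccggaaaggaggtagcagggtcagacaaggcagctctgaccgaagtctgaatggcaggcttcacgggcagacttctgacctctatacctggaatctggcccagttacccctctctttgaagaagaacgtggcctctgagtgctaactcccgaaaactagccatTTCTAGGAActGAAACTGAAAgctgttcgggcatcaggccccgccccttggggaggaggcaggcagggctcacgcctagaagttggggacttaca
Ifit1 (chr19:34640639-34640938, plus strand): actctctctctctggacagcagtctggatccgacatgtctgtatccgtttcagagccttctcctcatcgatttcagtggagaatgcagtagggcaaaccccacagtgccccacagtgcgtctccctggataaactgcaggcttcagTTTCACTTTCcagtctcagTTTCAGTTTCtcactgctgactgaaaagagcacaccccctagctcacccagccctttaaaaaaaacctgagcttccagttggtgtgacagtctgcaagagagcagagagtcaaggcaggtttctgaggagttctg
Rsad2 (chr12:26456403-26456702, minus strand): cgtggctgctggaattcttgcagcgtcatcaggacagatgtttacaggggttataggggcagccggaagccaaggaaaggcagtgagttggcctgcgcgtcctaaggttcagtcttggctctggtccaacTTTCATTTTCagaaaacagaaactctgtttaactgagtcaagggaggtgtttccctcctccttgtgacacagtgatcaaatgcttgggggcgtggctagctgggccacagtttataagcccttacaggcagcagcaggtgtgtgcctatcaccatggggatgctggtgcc
Cxcl10 (chr5:92348840-92349139, minus strand): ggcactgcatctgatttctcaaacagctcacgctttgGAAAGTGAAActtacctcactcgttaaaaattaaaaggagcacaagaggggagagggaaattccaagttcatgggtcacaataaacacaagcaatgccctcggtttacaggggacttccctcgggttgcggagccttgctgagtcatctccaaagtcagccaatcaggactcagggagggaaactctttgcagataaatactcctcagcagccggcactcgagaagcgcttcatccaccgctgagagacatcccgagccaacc
The response element began 34 bases before the start of Igtp, 120 before that of Rsad2 and 213 before that of Cxcl10, and Ifit1 had a pair of them, the first 104 bases before its start. Igtp also had a gamma-activated site 45 bases before its start. Of 27025 genes with a promoter in the table, 3.99% held the response element and 9.55% the gamma-activated site. The response element was in 12 of the 19 antiviral list promoters that matched the table (63.2%) and in 10 of 14 promoters of the GTPase list (71.4%), which held the gamma-activated site in 57.1%. Among genes described here, the windows of Oasl2, Ifi44, Ifi47, Ubd and Cxcl9 held neither motif. None of 8 MHC class II promoters held the response element in this window. A match describes letters in the window and does not show binding.

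In basal cells, Ifit1 (chromosome 19, 34640871 to 34650009), whose product binds uncapped viral RNA, was at 0.481 CPM in vehicle (3 counts), 53.7 CPM in replicate 1 and 46.3 CPM in replicate 2. The 4NQO libraries were close to each other and far above vehicle, a ratio of 104 (35.6 to 504, an interval for counting error in the vehicle library only). The log2 fold change was 6.44 (SE 1.03, edgeR adjusted p = 7.87e-07). Rsad2 (chromosome 12, 26442746 to 26456452), which encodes the antiviral enzyme viperin, rose from 0.481 CPM to 12.9 and 97.7 CPM, and its replicates differed more (log2 fold change 6.43, SE 1.03, edgeR adjusted p = 7.87e-07). Isg15, a ubiquitin-like modifier, had 12.0 CPM in vehicle, 164 CPM in replicate 1 and 134 CPM in replicate 2 (log2 fold change 3.46, SE 0.91, edgeR adjusted p = 0.0174). Among the members that also rose were Oasl2 (2.57, 34.6 and 59.4 CPM) and Rtp4 (2.25, 58.9 and 38.4 CPM).

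Of the interferon-gamma-linked genes in basal cells, Iigp1, an immunity-related GTPase, had 6.26 CPM in vehicle, 206 CPM in replicate 1 and 289.6 CPM in replicate 2, a log2 fold change of 5.09 (SE 1.06, edgeR adjusted p = 0.000532). Igtp (chromosome 11, 58199556 to 58207591), another GTPase of that family, was at 3.53, 45.0 and 35.1 CPM, a log2 fold change of 3.33 (SE 0.81, edgeR adjusted p = 0.00581). In both GTPase genes the 4NQO libraries lay well apart from vehicle and close together. Ubd (chromosome 17, 37193892 to 37196095), the ubiquitin-like modifier FAT10, had 0.481 CPM in vehicle from 3 counts, 37.6 CPM in replicate 1 and 52.5 CPM in replicate 2, a ratio of 93.6 (counting interval 32.0 to 454). Cd74, the invariant chain that escorts MHC class II molecules, was at 27.1, 704 and 548 CPM (log2 fold change 4.37, SE 1.16, edgeR adjusted p = 0.0179). The class II chains H2-Ab1 (12.8, 358 and 266 CPM) and H2-Aa (9.46, 155 and 161 CPM) rose as well. So 3 of 7 class II genes tested passed, against 1.04% of all genes called higher. The list's median was 3.19 (3.04 and 3.51 for the replicates). Of 19 MHC class I and antigen-processing genes 1 passed, H2-Q7 (8.66, 88.8 and 94.5 CPM), and 16 were higher in both 4NQO libraries, against 39.1% of all genes.

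Chemokines formed a further group, with 8 of 25 tested called higher in basal cells, against 1.04% of all genes. Cxcl9 (chromosome 5, 92321347 to 92328079) and Cxcl10 (chromosome 5, 92346638 to 92348889) are neighbouring genes whose products attract T cells through the receptor CXCR3. Cxcl9 had 0.321 CPM in vehicle from 2 counts, 46.5 CPM in replicate 1 and 155 CPM in replicate 2, a ratio of 314 (counting interval 86.9 to 2592) and a log2 fold change of 7.89 (SE 1.18, edgeR adjusted p = 1.39e-07). Cxcl10 had 4.81, 97.7 and 217 CPM, a log2 fold change of 4.77 (SE 0.98, edgeR adjusted p = 0.000406). Replicate 2 was the higher 4NQO library for both chemokines. Ccl5, a T cell attractant, was at 1.604, 30.4 and 22.4 CPM and also rose.

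Macrophage markers in the basal sums were high in replicate 2, and T cell markers were above vehicle in both replicates. The summed level of 8 macrophage markers was 14.6 CPM in vehicle, 15.1 CPM in replicate 1 and 134 CPM in replicate 2. The 6 T cell markers in the files were all at 0 in vehicle and summed to 4.95 and 6.52 CPM. The part of macrophages, T cells or other cells in the basal interferon gene levels of either replicate was not tested. Genes with most of their rise in replicate 2 include some known from myeloid cells, such as the lysosomal protease gene Ctss (1.93, 5.69 and 249.8 CPM) and Il1rn (0.481, 1.73 and 59.4 CPM), which encodes the interleukin 1 receptor antagonist. Both were also higher in replicate 1 than in vehicle. The part of the macrophage markers in those values was not tested.

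The share of basal cells with a transcript gave the same order after thinning to 1000 UMIs. Cd74 was found in 1.61% of vehicle, 21.97% of replicate 1 and 17.9% of replicate 2 basal cells, and Iigp1 in 0.496%, 12.0% and 14.3%. Unthinned, at median depths of 3294, 2741 and 2342 UMIs, the Cd74 shares were 5.17%, 32.4% and 36.3%. The macrophage gene C1qa, which epithelial cells should lack, was found in 0.186%, 0.349% and 3.86% of thinned basal cells and in 0.554%, 0.944% and 7.61% unthinned. C1qa is also a gating marker of macrophages, so its share does not measure how much Cd74 or Iigp1 came from other cells. Macrophages held 60.7%, 35.6% and 66.9% of all Cd74 transcripts in vehicle, replicate 1 and replicate 2. The part of other cells in the basal Cd74 and Iigp1 shares was not tested. In hormone-sensing cells of replicate 1 the Cd74 share was 1.66%, against 0.815% in vehicle and 9.53% in replicate 2.

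**Figure D2:**
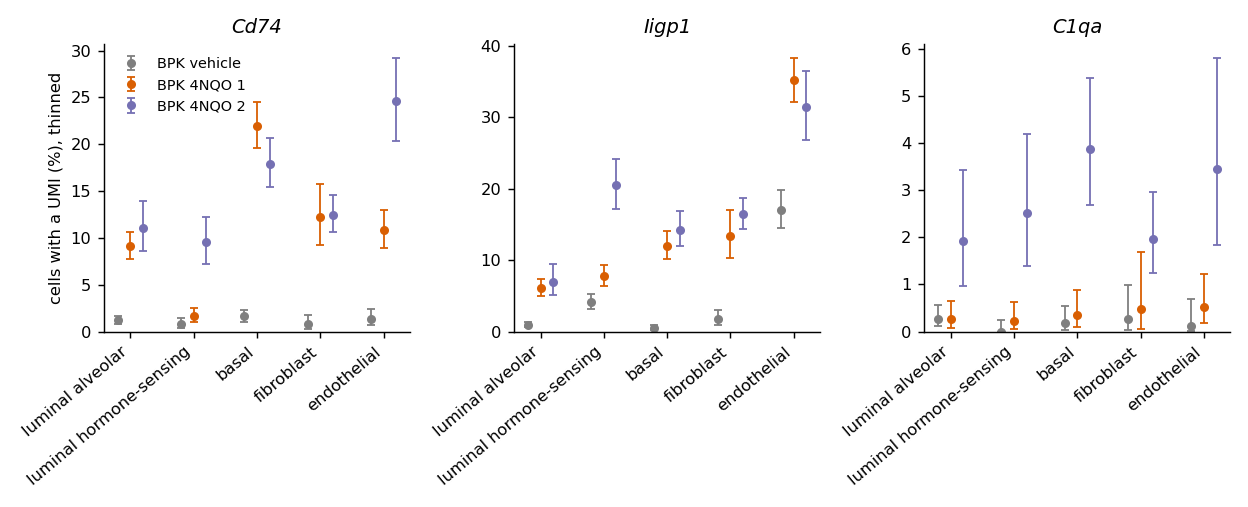
Share of cells with at least 1 UMI (%) of Cd74, Iigp1 and C1qa in 5 classes after thinning every cell to 1000 UMIs, per library with exact 95% intervals. In basal cells Cd74 goes from 1.61% in vehicle to 21.97% and 17.9%, while C1qa, a macrophage gene, is at 0.186%, 0.349% and 3.86%.

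Genes of keratinization rose in basal cells as well. Krt6a (chromosome 15, 101689910 to 101694307), a keratin of wounded and activated epidermis, had 3.21 CPM in vehicle, 104 CPM in replicate 1 and 213 CPM in replicate 2, a log2 fold change of 5.37 (SE 1.02, edgeR adjusted p = 9.39e-05). Klk8 (chromosome 7, 43797577 to 43803826), a serine protease of the epidermis, had 0.321 CPM from 2 counts, 41.1 CPM and 47.1 CPM, a ratio of 137 (counting interval 38.0 to 1134). Its log2 fold change was 6.78 (SE 1.07, edgeR adjusted p = 6.78e-07). Sprr1a, a cornified envelope protein, was at 6.26, 17.8 and 89.1 CPM and passed at an edgeR adjusted p of 0.0330. Sprr1a was also among the top genes of the hormone-sensing class. Summed hormone-sensing markers in the basal class were 86.5 CPM in vehicle, 92.3 CPM in replicate 1 and 113 CPM in replicate 2. Their part in the Sprr1a values was not tested. Of 16 keratinization genes tested, 3 rose, against 1.04% of all genes, and 9 were at least 2-fold higher in both 4NQO libraries, against 4.00%. The list's median was 2.03 (1.31 and 2.46 for the replicates). Krtdap, the member that passed beside Krt6a and Sprr1a, is itself a keratinocyte gating marker. The summed keratinocyte markers in the basal class were 1431 CPM in vehicle, 1706 CPM in replicate 1 and 1136 CPM in replicate 2.

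The luminal genes Csn2 and Ehf also rose in basal cells. The casein gene Csn2, which encodes a milk protein, had 1.93, 33.4 and 59.7 CPM (log2 fold change 4.34, SE 0.87, edgeR adjusted p = 0.000256), and Ehf, an epithelial ETS factor, had 2.09, 18.1 and 50.3 CPM (log2 fold change 3.75, SE 0.84, edgeR adjusted p = 0.00178). Summed alveolar markers in the basal class were 251 CPM in vehicle, 463 CPM in replicate 1 and 493 CPM in replicate 2, and their part in the Csn2 and Ehf values was not tested. Of 12 smooth muscle contractile genes, which give myoepithelial cells their contraction, none passed in edgeR or DESeq2 (0 at an unadjusted p under 0.05), and 10 were lower in both 4NQO libraries, against 22.6% of all genes. The most abundant of them, Acta2, was at 6379, 4511 and 3772 CPM.

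Luminal alveolar cells showed the same 2 interferon groups with lower fold changes. Of 13607 genes tested, 54 rose (0.397%) and 8 fell (0.0588%), but with the 3 compared libraries alone 14 rose and 4 fell. In the antiviral list 9 of 27 rose and 21 were at least 2-fold higher in both 4NQO libraries, against 2.15% of all genes, and the median was 2.09 (2.03 and 2.19 for the replicates) against 0.01 over all genes. In the GTPase list 7 of 17 rose, with a median of 2.85 (2.84 and 2.44). Irf7 (chromosome 7, 141262706 to 141266481), the factor that amplifies interferon responses, had 13.8 CPM in vehicle, 167 CPM in replicate 1 and 86.1 CPM in replicate 2, a log2 fold change of 3.07 (SE 0.82, edgeR adjusted p = 0.0453, and 0.154 with the 3 compared libraries alone). Ubd was at 0.499, 90.3 and 26.6 CPM (log2 fold change 6.76, SE 0.93, edgeR adjusted p = 1.94e-09), the reverse order of replicates from that in Rsad2 (2.63, 10.99 and 52.1 CPM). Oas2, an antiviral oligoadenylate synthetase, had 0.366, 9.13 and 15.8 CPM and Cxcl9 0.299, 15.8 and 31.8 CPM, and both also passed with the 3 compared libraries alone. Cd74 had 31.9, 211 and 231 CPM but did not pass in edgeR (adjusted p = 0.264), as opposed to DESeq2 (adjusted p = 0.00754).

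In hormone-sensing cells few genes passed the test: 12 of 12129 were called higher (0.0989%) and 4 lower (0.0330%). None of 25 antiviral genes passed in edgeR or in DESeq2, 8 had an unadjusted p under 0.05, and their median was 1.00 (0.75 and 1.19 for the replicates). Ubd was the member of the GTPase list that passed, at 0.301 CPM from 3 counts in vehicle, 17.7 CPM in replicate 1 and 30.8 CPM in replicate 2 (log2 fold change 6.07, SE 1.10, edgeR adjusted p = 0.000198). Ctsr (chromosome 13, 61159204 to 61164256), which encodes a cathepsin-family protease, was at 5.31, 106 and 471 CPM in hormone-sensing cells (log2 fold change 5.50, SE 1.36, edgeR adjusted p = 0.0427). In alveolar cells Ctsr was also called higher, from 0.166 CPM to 11.4 and 33.0 CPM. Ctsr was among the top genes of the hormone-sensing class. Summed hormone-sensing markers in the alveolar class were 724 CPM in vehicle, 808 CPM in replicate 1 and 1132 CPM in replicate 2. Their part in the alveolar Ctsr values was not tested. Clca1, a secreted modulator of chloride channels, was at 2.11, 13.9 and 178 CPM, with most of its rise in replicate 2. Ccl8, a chemokine gene, passed at 0.601, 13.5 and 21.6 CPM.

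**Figure D3:**
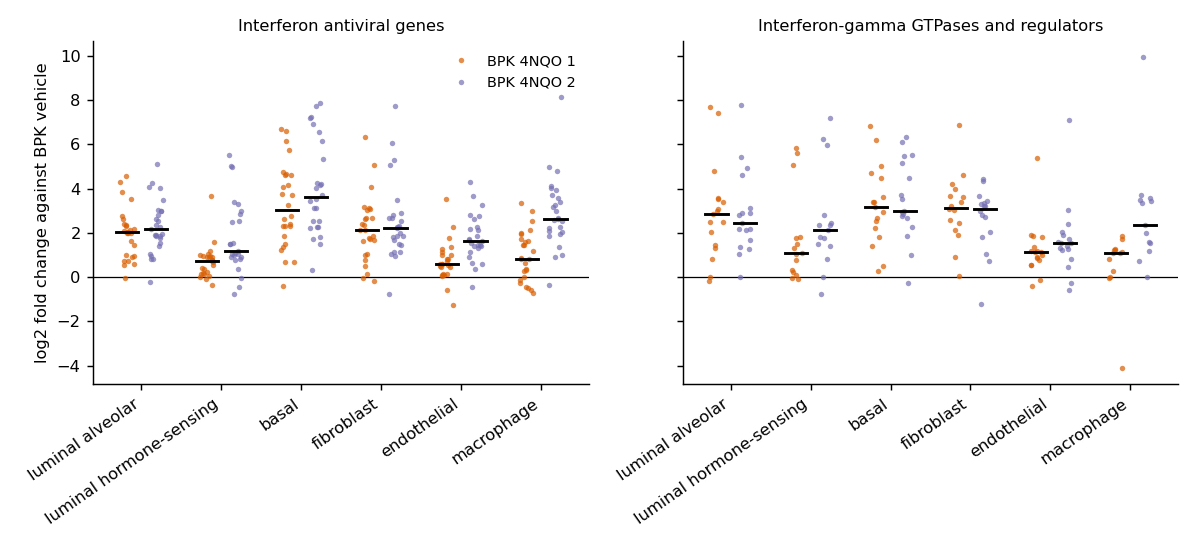
Log2 fold change against vehicle of each gene of the antiviral list (one panel) and of the interferon-gamma GTPase list (the other panel) in 6 classes, for replicate 1 and replicate 2 separately, with black bars at the medians. Medians of the combined fit are 3.51 in basal, 2.09 in alveolar and 1.00 in hormone-sensing cells for the antiviral genes, and folds of genes with no vehicle count depend on the prior count of the fit.

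The difference in 4NQO effect between epithelial classes was tested directly with the library as a block. Between hormone-sensing and basal cells 192 of 13113 genes differed (1.46%), 51 with the higher effect in hormone-sensing cells and 141 with the higher effect in basal cells. Of 27 antiviral genes 12 had a lower effect in hormone-sensing than in basal cells and none a higher one, and the median difference was -2.17 on the log2 scale. The same held for 4 of 8 MHC class II genes, including Cd74 (difference -3.17), and 8 of 19 class I genes. Between alveolar and basal cells 105 of 13153 genes differed (0.798%), among them 7 antiviral and 3 class II genes, all lower in alveolar cells. Between alveolar and hormone-sensing cells 17 of 13400 genes differed (0.127%), and Irf7, Oasl2 and Rtp4 of the antiviral list had the higher effect in alveolar cells. Rtp4 was at 15.1, 83.4 and 33.0 CPM in alveolar cells and at 21.0, 19.4 and 15.4 CPM in hormone-sensing cells. DESeq2 called fewer differences, 13, 12 and 0 in the order given.

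Most proliferation genes had lower levels in luminal cells of both 4NQO libraries, but none of the list passed the test. In hormone-sensing cells 24 of 28 genes of the proliferation list were lower in both 4NQO libraries, against 22.5% of all genes, 15 of them at least 2-fold (against 1.66% of all genes), and the median was -1.82 (-1.93 and -1.46 for the replicates). None of the 28 passed in edgeR (14 at an unadjusted p under 0.05) or in DESeq2. In alveolar cells 22 of 28 were lower in both, against 16.9% of all genes, with a median of -0.88 (-1.24 and -0.77), none passing and 11 at an unadjusted p under 0.05. In basal cells the median was 0.02 (0.14 and -0.20) and 5 of 28 were lower in both, against 22.6% of all genes. Birc5, a chromosomal passenger protein of mitosis, was at 52.5, 10.6 and 10.2 CPM in hormone-sensing cells (log2 fold change -2.46, SE 0.74, edgeR adjusted p = 0.256) and at 43.4, 14.5 and 12.0 CPM in alveolar cells. Mki67 did not follow it, at 30.2, 7.14 and 35.4 CPM in hormone-sensing cells, lower in replicate 1 and higher in replicate 2 than in vehicle.

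Outside that list, Cdca3 (chromosome 6, 124829547 to 124833701), a trigger of mitotic entry, fell in both luminal classes. It was at 35.7, 6.01 and 4.26 CPM in hormone-sensing cells (log2 fold change -2.86, SE 0.71, edgeR adjusted p = 0.0477) and at 26.1, 5.93 and 5.74 CPM in alveolar cells (log2 fold change -2.31, SE 0.56, edgeR adjusted p = 0.0144). With the 3 compared libraries alone it passed in neither class (adjusted p = 0.0742 and 0.0815). In alveolar cells Knstrn, a spindle protein, was at 32.9, 7.68 and 6.70 CPM (log2 fold change -2.33, edgeR adjusted p = 0.0143) and the noncoding Lockd at 41.1, 8.14 and 7.65 CPM (log2 fold change -2.53, edgeR adjusted p = 0.00626). The other 3 genes that fell in hormone-sensing cells, named after their values were seen, were the centromere gene Cenpm and the muscle genes Acta1 and Tnnc2. In the test of the class difference, 17 of the 28 proliferation genes had a lower 4NQO effect in hormone-sensing than in basal cells. Over all genes, 1.46% differed in either direction. The list's median difference was -1.62, and Birc5 had a difference of -2.60 (SE 0.38, edgeR adjusted p = 3.79e-08, DESeq2 0.273). DESeq2 called 13 differences over all genes for this pair of classes. For alveolar against basal cells 4 of the 28 differed, Birc5, Cdk1, Top2a and Ube2c, against 0.798% of all genes.

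**Figure D4:**
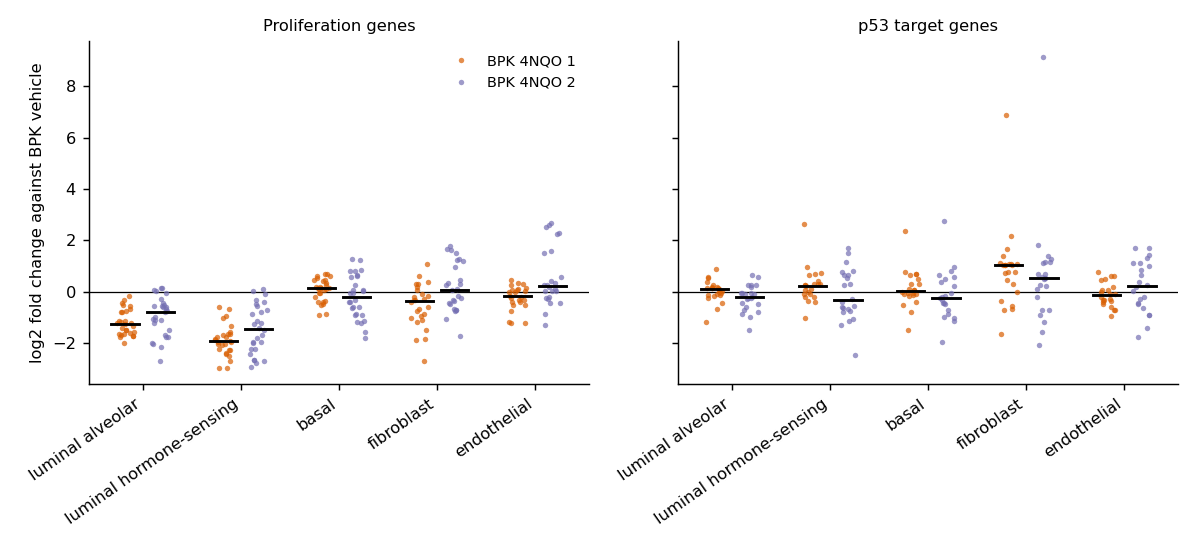
Log2 fold change against vehicle of each gene of the proliferation list and of the p53 target list in 5 classes, per 4NQO replicate, with black bars at the medians. The proliferation medians of the combined fit are -1.82 in hormone-sensing, -0.88 in alveolar and 0.02 in basal cells, and the p53 target medians lie near 0 in the epithelial classes.

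No gene of the repair and damage lists passed in the epithelial classes. p53 targets numbered 0 of 23 in alveolar, 0 of 22 in hormone-sensing and 0 of 22 in basal cells in edgeR and in DESeq2, with 1, 2 and 2 at an unadjusted p under 0.05 and medians of -0.05, 0.22 and -0.02. The p53 target medians were 0.09, 0.23 and 0.01 in replicate 1 and -0.19, -0.33 and -0.24 in replicate 2, so their sign differed between the replicates. All 3 glands carry floxed Trp53 and Krt14cre, the vehicle gland included. Nucleotide excision repair and translesion synthesis genes had medians of -0.06, -0.09 and -0.16 in the same classes, with none passing in either tool and at most 1 at an unadjusted p under 0.05. Targets of NRF2, the factor that answers oxidants and electrophiles, had medians of 0.10, 0.14 and 0.08, and none passed in either tool, with at most 2 at an unadjusted p under 0.05. Homologous recombination and Fanconi genes, many of which are made in S phase, had a median of -1.07 in hormone-sensing cells (-1.01 and -0.67 for the replicates). There 14 of 22 were lower in both 4NQO libraries, against 22.5% of all genes. In basal cells their median was 0.27 (0.14 and 0.73). None passed in either tool, with at most 1 at an unadjusted p under 0.05.

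Fibroblasts lie outside the epithelium in which the Krt14 promoter is active. Of 10983 genes tested there, 29 rose (0.264%) and 6 fell (0.0546%). Of the 29, 28 were at least 2-fold higher in both 4NQO libraries, against 5.32% of all genes. The 29 were selected by the test on these same libraries, so this comparison is not independent evidence that the replicates agree. Cdkn2a (chromosome 4, 89274471 to 89294653), which encodes the cell cycle inhibitors p16 and p19ARF and is a marker of senescence, had 6.46 CPM in vehicle, 223 CPM in replicate 1 and 91.2 CPM in replicate 2. Both 4NQO libraries were far above vehicle (log2 fold change 4.49, SE 1.16, edgeR adjusted p = 0.0357, DESeq2 0.00356), and the PK 4NQO gland had 144 CPM. Its neighbour family member Cdkn2b was at 18.5, 30.8 and 12.5 CPM and did not pass. Eda2r (chromosome X, 97333840 to 97377216), a tumour necrosis factor receptor family gene induced by p53, had no count in vehicle, 9.30 CPM in replicate 1 and 25.5 CPM in replicate 2, at least 12.6-fold higher against a floor of 3 counts in the vehicle library (edgeR adjusted p = 0.00410). It was the 1 of 23 p53 targets that passed in fibroblasts, where the list's median was 0.85 (1.02 and 0.52 for the replicates) against 0.06 over all genes. Among the abundant p53 targets, Cdkn1a was at 197, 429.5 and 293 CPM and Mdm2 at 35.5, 79.6 and 97.0 CPM, higher in both 4NQO libraries without passing (edgeR adjusted p = 0.999 for each).

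Several of the genes that rose in fibroblasts encode secreted proteins. Serpinb2 (chromosome 1, 107511423 to 107535478), an inhibitor of plasminogen activators, had 0.923 CPM in vehicle from 2 counts, 265 CPM in replicate 1 and 216 CPM in replicate 2, a ratio of 260.4 (counting interval 72.1 to 2150.1). Saa3 (chromosome 7, 46711998 to 46715700), an acute phase protein, was at 4.62, 2961 and 86.5 CPM, with the replicates far apart (log2 fold change 8.32, SE 1.82, edgeR adjusted p = 0.00377, DESeq2 0.494). Ereg (chromosome 5, 91074622 to 91093646), a ligand of the EGF receptor, had 1.38, 112 and 21.8 CPM and likewise was highest in replicate 1. The chemokine genes Cxcl9 (2.31, 371 and 381 CPM), Cxcl5 (6.001, 173 and 51.4 CPM) and Ccl9 (0.923, 58.1 and 35.6 CPM) rose. With Cxcl3 they made 4 of 25 chemokines, against 0.264% of all genes. Cxcl9 was found in 0.275% of thinned vehicle fibroblasts, 12.0% of replicate 1 and 8.12% of replicate 2. The summed macrophage markers in fibroblasts were 21.2, 25.6 and 75.7 CPM.

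Hoxc10 and Chl1 rose in fibroblasts as well. Hoxc10, a homeobox gene of the posterior body, had 0.462 CPM in vehicle from 1 count, 47.7 CPM in replicate 1 and 25.5 CPM in replicate 2, and Chl1, a cell adhesion molecule, had 1.38, 109 and 77.3 CPM. Hmga2, a chromatin protein of embryonic and proliferating mesenchyme, had no count in vehicle and 20.3 and 24.5 CPM, at least 16.2-fold higher. Hmga2 is outside the rule for named genes and was chosen after its values were seen. Of the interferon lists 2 of 26 antiviral genes and 3 of 16 GTPase genes rose, against 0.264% of all genes. The antiviral median was 2.24 (2.11 and 2.23 for the replicates), against 0.06 over all genes. At least 2-fold higher in both 4NQO libraries were 21 of the 26 antiviral genes, against 5.32% of all genes. Genes that fell included Upk3a, a uroplakin (54.9, 1.16 and 1.54 CPM, log2 fold change -5.45, edgeR adjusted p = 2.86e-07), which was at 506, 189 and 105 CPM in hormone-sensing cells. Coch, an extracellular matrix protein, was at 33.7, 3.49 and 1.88 CPM, and Car3, a carbonic anhydrase of fat and muscle, at 70.6, 0.581 and 21.8 CPM.

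**Figure D5:**
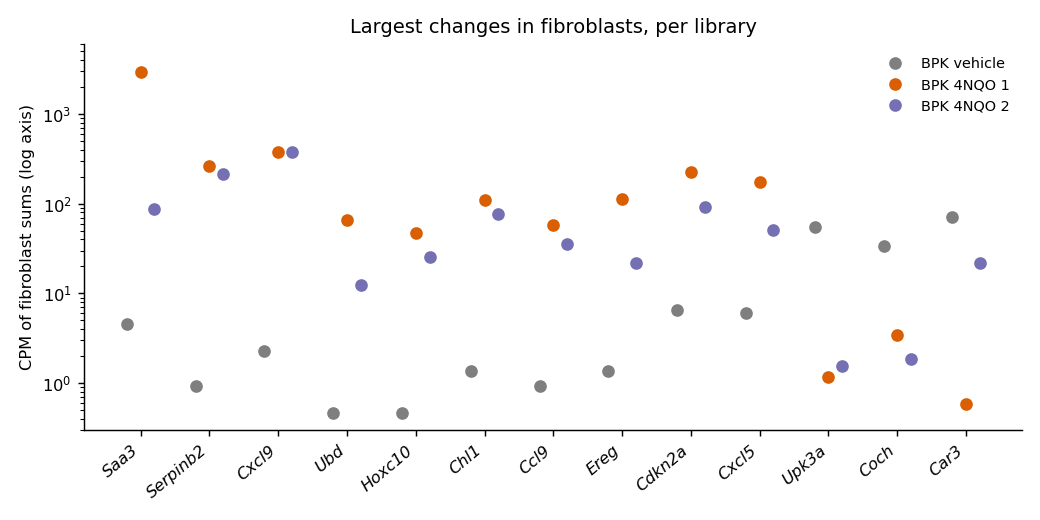
Level (CPM, log axis) of 13 named genes in the fibroblast sums of the vehicle library and both BPK 4NQO libraries. Cdkn2a is at 6.46, 223 and 91.2 CPM and Upk3a at 54.9, 1.16 and 1.54 CPM, and Saa3 and Car3 show wide gaps between the 4NQO replicates.

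In endothelial cells 14 of 10646 genes rose (0.132%) and 2 fell (0.0188%), and DESeq2 called 2 in all. Ubd had 1.63, 68.6 and 249 CPM (log2 fold change 6.48, SE 1.21, edgeR adjusted p = 0.000326), and Zbp1, a sensor of left-handed nucleic acids that triggers necroptosis, 1.63, 19.2 and 36.0 CPM (log2 fold change 3.96, SE 0.91, edgeR adjusted p = 0.0120). Unlike Ubd, Iigp1 and Cxcl9 were already abundant in vehicle endothelial cells. Iigp1 was at 216, 476 and 558 CPM and Cxcl9 at 131, 308 and 760.0 CPM, without passing, and the antiviral list had a median of 1.06 (0.61 and 1.64 for the replicates) with 1 of 25 higher. Of 19 AP-1 and immediate early genes, which respond within minutes to stress and growth factors, 15 were lower in both 4NQO libraries, against 25.3% of all genes, with a median of -0.42 (-0.45 and -0.54 for the replicates), and none passed in edgeR (0 at an unadjusted p under 0.05) or DESeq2. Macrophage markers summed to 13.5, 10.5 and 135 CPM in endothelial cells, beside a rise of the myeloid genes Lyz2 (6.11, 13.9 and 171 CPM) and Ctss (2.04, 4.63 and 112 CPM) that was largest in replicate 2. Macrophages had no call among 6550 genes (0%) in edgeR, with 90 at an unadjusted p under 0.05, and none in DESeq2. There Cxcl9 was at 3.26, 78.7 and 271 CPM and the antiviral median was 2.21 (2.04 at the bound), with 0.84 in replicate 1 and 2.65 in replicate 2. Pericytes had 1 rise among 4280 genes (0.0234%), Gm42418, which was high in replicate 2 alone and was named after its value was seen.

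Ubd and Ctss were called higher in 5 of the 7 classes tested, and were at least 2-fold higher in both 4NQO libraries in 5 and 4 of these. Ccl8, Laptm5, a lysosomal membrane gene of blood cells, 5830416I19Rik and Gm10062 were called in 4 classes each, with such a change in both libraries in 4, 3, 0 and 0 of them. Of 9 genes called in 3 classes, Cxcl9, Igtp, Ifi44 and Alox12e had it in all 3, and Btg3, Plek, Ptprc, Gm26722 and Lars2 in 1 or none. Ctss was among the top genes of the macrophage class. In all 5 classes where Ctss was called, summed macrophage markers were higher in replicate 2 than in vehicle or replicate 1. In basal cells they were at 14.6, 15.1 and 134 CPM in vehicle, replicate 1 and replicate 2, and in endothelial cells at 13.5, 10.5 and 135 CPM. Their part in the Ctss values was not tested. Of the genes called higher in at least 1 class, 113 were called in a single class. Over the whole libraries 70 genes rose (0.428%) and 15 fell (0.0917%) of 16354 in edgeR, and 73 rose and 12 fell in DESeq2. With DESeq2's scaling of library sizes in edgeR, however, a single gene passed, which fell. For 29 of the 70 the largest number of 4NQO transcripts came from macrophages, for 19 from T cells and for 10 from fibroblasts. This differed between the replicates: macrophages led for 15 genes in replicate 1 and 32 in replicate 2, T cells for 25 and 17, and fibroblasts for 10 in each. The falls with the highest levels were skeletal muscle genes, such as Tnnc2, a fast troponin (88.6, 0.256 and 4.74 CPM), and Mylpf, a myosin light chain (69.7, 3.83 and 8.04 CPM). Muscle cells numbered 50 in vehicle, 0 in replicate 1 and 3 in replicate 2, and Acta1 and Tnnc2 also fell in 5 of the classes, where their levels were lower than over the whole vehicle library.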

How the data were processed

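Single-cell 3′ libraries (v2 chemistry per the labels' protocols) were deposited as UMI counts per gene and cell barcode, made with Cell Ranger 5.0.1, or 3.0.2 for the PK 4NQO library, per the file headers, and aligned to mm10 per the submitters' processing notes. Each cell was scored as the mean of log-scaled marker levels and took the class with the top score where at least 2 markers were detected and the score was at least 1.5 times the next. Doublets were kept in the main values, and a setting with the likeliest ones removed was tried. Counts were summed per library and class with at least 30 cells in each, and edgeR 4.0.16 (quasi-likelihood test, TMM factors, filterByExpr, Benjamini-Hochberg threshold 0.05, R 4.3.3) was fitted to the 4 gland libraries with 1 residual degree of freedom. DESeq2 1.42.0 was an alternative, beside other scaling, no filter, the 3 compared libraries alone, a stricter gate and each replicate left out. Gene lists were described by counts and medians. On simulated data 77.0% of genes changed 8-fold were recovered in alveolar cells, 48.5% in fibroblasts, 28.0% over whole libraries and 7.50% in macrophages, with 10, 3, 0 and 0 false calls.

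SE is the log2 fold change divided by the root of the F value. Named genes are the 10 highest rises and falls with at least 30 CPM in the higher group on the same side of vehicle in both replicates, without gating markers and some gene families. To these were added list members that passed and up to 4 abundant ones, Brca1, Trp53 and Krt14, and genes of the class differences. Other genes, such as Cdkn2b, Cenpm and Acta1, were named after their values were seen. Members and lists were chosen with earlier results of these data known. Coordinates are from mm10 with GENCODE M21. The injected dose is not printed because its unit is in doubt.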

Additional observations from a re-analysis of the deposited data

Results flagged for a closer look

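These genes had a 4NQO effect that differed between epithelial classes in the edgeR test of the class by treatment difference, with at least 1 log2 unit the same way in both replicates. Values are differences of log2 fold changes. Against hormone-sensing cells, alveolar cells had a higher effect for the interferon genes Rtp4 (2.12), Irf7 (2.02) and Oasl2 (1.85). They had a lower effect for the chemokine gene Cxcl2 (-1.42), Tnip3 (-1.51), which encodes an inhibitor of NF-kappa-B signalling, and Wfdc12 (-1.93). Against basal cells, alveolar cells had a higher effect for Nnat (2.49), Pappa (2.08) and Krt23 (2.07) and a lower one for S100g (-4.59), Krt6a (-6.11) and Klk8 (-7.43). The basal S100g levels were 0.963, 0.989 and 45.3 CPM in vehicle, replicate 1 and replicate 2, so its rise was in replicate 2. Against basal cells, hormone-sensing cells had a higher effect for Samd4 (3.16), Pdk4 (2.84) and the clock gene Dbp (2.37), and a lower one for Ccl5 (-4.83), Krt6a (-5.72) and Klk8 (-6.03). Pdk4, a brake on pyruvate oxidation, was at 106, 27.5 and 44.9 CPM in basal cells, and Dbp at 15.9, 4.95 and 2.90 CPM. In DESeq2 the alveolar against basal difference of Krt6a had an adjusted p of 2.79e-15, and no alveolar against hormone-sensing difference passed.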

How the results depend on the processing

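Of 136 single-gene results, 132 kept their direction under every alternative tried, although the stricter gate gave a value for 113 of the 136. Without replicate 2, the 4 others reversed: Zeb2 to -0.21 in alveolar (4.39 without replicate 1) and -1.46 in basal cells (3.87), and Mmp12 to -3.64 in basal cells (8.30) and -3.69 in fibroblasts (5.40). A further 30 moved by more than the spread between replicates without replicate 2, and 3 did without replicate 1. Calls were lost for 65 of the results in DESeq2, 26 with the stricter gate, 23 with DESeq2's scaling in edgeR, 18 with no low-count filter, 18 with the 3 compared libraries alone and 17 with doublets removed. The number of genes called went from 85 to 1 over whole libraries with DESeq2's scaling in edgeR. DESeq2 itself called 85 there, 57 of them shared with the main calls. Per class, the number called went in DESeq2 from 62 to 28 in alveolar, 16 to 5 in hormone-sensing, 129 to 27 in basal, 35 to 15 in fibroblasts, 16 to 2 in endothelial cells and 1 to 0 in pericytes. The DESeq2 counts of class differences were 0 for alveolar against hormone-sensing, 12 for alveolar against basal and 13 for hormone-sensing against basal cells. Alveolar calls were 18 with the 3 compared libraries alone. Leaving out a replicate leaves no residual degrees of freedom and so no test: 41 to 62 of the 62 alveolar calls and 0 to 1 of the pericyte calls then kept the direction with at least a 2-fold change. Hormone-sensing calls were 9 with doublets removed and 3 with the stricter gate, and endothelial calls 9 with the stricter gate. The pericyte call was lost (0) with DESeq2's scaling and with no filter. The log2 share ratio against vehicle ranged, with a replicate left out, from -0.88 to 0.25 in hormone-sensing cells, -0.45 to 1.14 in fibroblasts, -0.61 to 0.55 in endothelial cells and -0.0185 to 2.28 in macrophages. After thinning it was 0.0452 in endothelial cells and 0.44 in pericytes. T, NK, dendritic and plasma cells had under 30 vehicle cells and were not tested, and in macrophages 7.50% of simulated 8-fold changes were recovered. No paired analysis was possible because the vehicle label carries no replicate number and the groups share fewer than 2 numbers.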

Other observations

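Mast cells numbered 3 in vehicle, 0 in replicate 1 and 22 in replicate 2, and Schwann cells 36, 18 and 52. Gzmb, which encodes the cytotoxic protease granzyme B, was at 1188 CPM within the few vehicle T cells (25 counts, exact Poisson interval 769 to 1753), 847 CPM within those of replicate 1 (752 to 952) and 435 CPM within those of replicate 2 (387 to 488). The vehicle interval overlapped that of replicate 1 and lay above that of replicate 2.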
